A study of Mus musculus with 6 samples.

Results

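The potassium channel genes were the protein-coding mouse genes whose symbol is Kcn followed by letters and a number, which gave 92 genes of the 55401 gene IDs in the tables. The group holds pore-forming subunits of all potassium channel classes, silent subunits that act only together with others, and auxiliary subunits. Antisense genes and the differently spelled Kcne1l and Kcnrg fell outside the rule. Polyadenylated RNA was measured in primary cholangiocytes, the epithelial cells lining the bile ducts, from livers of WT mice (3 libraries) and of mice with polycystic liver disease, genotype PLD (3 libraries). All libraries were made 3 months after tamoxifen. Cells had been bound with an EpCAM antibody and collected on magnetic beads after digestion of the biliary tree. The labels name neither the gene altered in PLD nor the Cre line, strain, sex or age. They also do not say whether a library came from 1 animal, so p-values measure only the spread between these libraries, which may be technical.

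Potassium channels let potassium ions leave cells along their gradient and so keep the inside of the membrane negative. In secretory epithelia such as bile ducts this outflow keeps up the electrical force that drives chloride, with water behind it, across the apical membrane into the lumen. Voltage-gated, calcium-activated, inward rectifier and K2P (background or leak) channels differ in what opens them. In nerve, glia and smooth muscle the same gene family sets excitability and vessel tone.

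The libraries held 15768561 to 16710548 counted reads. PLD replicates 2 and 3 were closest to each other (Pearson r across genes 0.991 on the log2 CPM scale), with r of 0.976 and 0.973 to PLD replicate 1. WT replicates 2 and 3 had an r of 0.988, and WT replicate 1 stood further off at 0.971 and 0.98. Markers of the labelled cell type were present in every library. Epcam, the gene of the selection target, was counted 4309 to 6742 times in a WT library and 15309 to 19783 times in a PLD library. For Pecam1, a gene of endothelium, the counts went from 14002 to 18297 in WT and from 891 to 1582 in PLD. In these bulk samples fewer cells of a type and less RNA per cell cannot be told apart. Of 15 cholangiocyte markers 13 were higher in PLD and 1, the secretin receptor gene Sctr, was lower. Their summed level was 9410 to 13700 CPM (counts scaled to an equal library size) in WT and 32500 to 45200 CPM in PLD. All 15 endothelial markers were lower (summed 6430 to 8270 CPM in WT and 533 to 928 CPM in PLD). All 12 smooth muscle and pericyte markers were lower as well (3910 to 4120 CPM in WT and 390 to 644 CPM in PLD), and so were 9 of 12 fibroblast markers, with 1 higher (7350 to 13300 CPM in WT and 1920 to 4950 CPM in PLD). Of 11 hepatocyte markers 5 were lower and 2 higher (1350 to 2310 CPM in WT and 1890 to 6110 CPM in PLD). Most of that sum was Alb (1080 to 1890 CPM in WT and 1300 to 5510 CPM in PLD), which overlapped between the groups and did not pass. Of 8 tested immune markers 1 was lower and 2 were higher (397 to 409 CPM in WT and 514 to 705 CPM in PLD).

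Of the 92 potassium channel genes 43 had enough reads to be tested. In PLD 9 of them were higher and 24 lower, and 10 did not pass (edgeR's quasi-likelihood test, Benjamini-Hochberg adjusted p under 0.05 over all 15334 tested genes). Among all tested genes 27% were higher and 28.4% lower, 55.4% in either direction, against 20.9% higher and 55.8% lower among the tested members. The median log2 fold change, PLD minus WT, was -1.3 over the tested members and 0.01 over all tested genes. The higher genes included the 5 members with the highest level per length in PLD, Kcnk1, Kcnq1, Kcne3, Kcnk5 and Kcnn4. That ranking uses the PLD values and so favours higher genes. By level in WT the first 5 were Kcnk1, Kcne4, Kcnk5, Kcnq1 and Kcne3, and of these Kcne4 was lower. Of the 24 lower genes 10 belonged to the voltage-gated classes and 5 to the calcium- and sodium-activated class. PLD values lay wholly above WT for 9 tested members and wholly below for 26. Among all tested genes this held for 33% and 33.2%, or 66.2% in either direction. With a log2 change of at least 1 asked for as well, 7 members were higher and 22 lower, against 9.21% and 18.1% of all tested genes. For 4 of the lower genes every PLD library had under 10 reads, so that they entered the test through WT. Further lower genes had under 10 reads in at least 1 PLD library, among them Kcna2 (8, 12 and 11 reads) and Kcnk3 (9, 16 and 24). These too needed the WT libraries to pass the low count filter, and the share of lower genes includes them. Without PLD replicate 1 the counts were 13 higher and 24 lower.

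**Figure D1:**
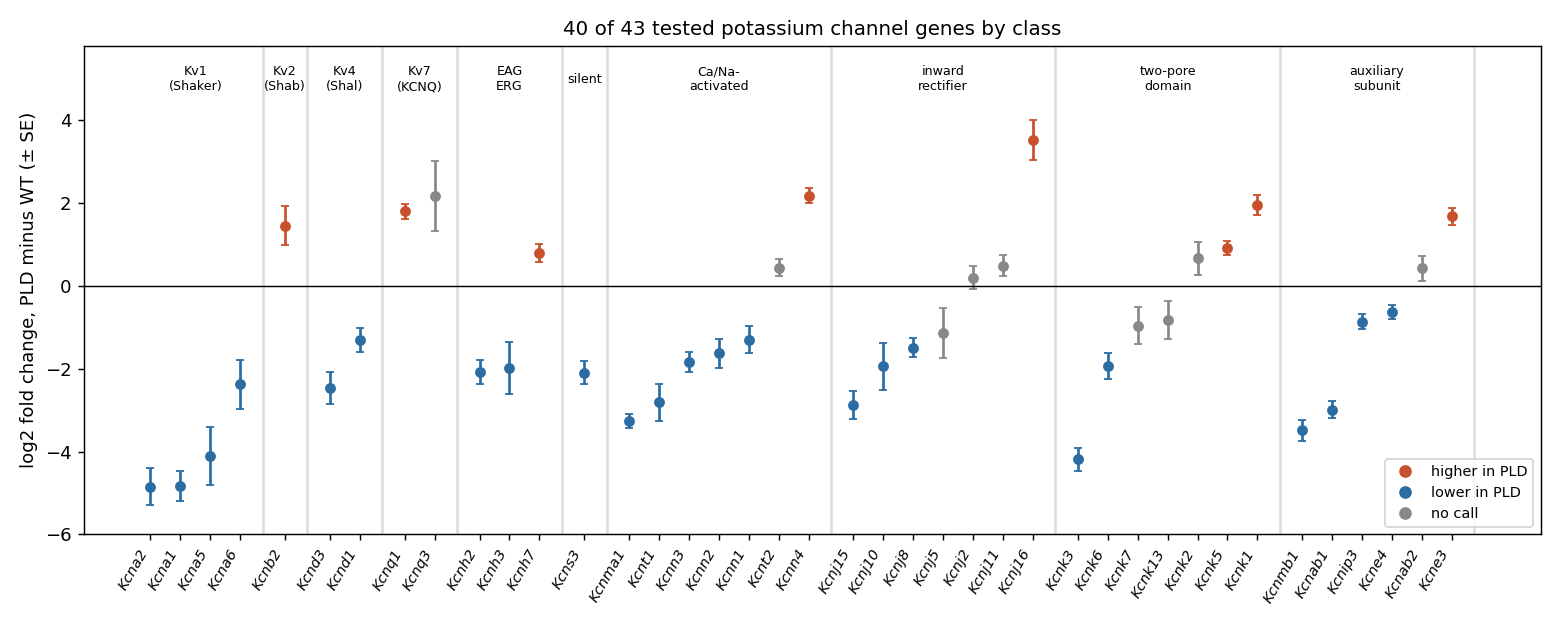
Each point is the log2 fold change (PLD minus WT, vertical axis) of 1 of 40 shown genes, out of 43 tested, with its standard error, ordered by class along the horizontal axis. All 4 tested Kv1 genes lie below 0, whereas called genes of the calcium- and sodium-activated, inward rectifier, K2P (two-pore domain) and auxiliary classes lie on both sides. The 4 Kv1 genes passed the low count filter through their WT libraries.

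Upstream sequences are shown for 3 members whose behaviour differed. Kcnn4 and Kcnn3 belong to the same family of calcium-activated channels and moved in opposite directions, and Kcnmb1 fell together with the channel gene whose product it modulates. RefSeq windows on GRCm38.p6 matched 67 of the 92 members. The stretches are the 250 bases before the annotated start, at chr7:24370013-24370262 (Kcnn4), chr3:89519914-89520163 (Kcnn3) and chr11:33962763-33963012 (Kcnmb1), all on the plus strand and outside the gene models of the tables. Capitals mark a GC box, GGGCGG on either strand.
Kcnn4: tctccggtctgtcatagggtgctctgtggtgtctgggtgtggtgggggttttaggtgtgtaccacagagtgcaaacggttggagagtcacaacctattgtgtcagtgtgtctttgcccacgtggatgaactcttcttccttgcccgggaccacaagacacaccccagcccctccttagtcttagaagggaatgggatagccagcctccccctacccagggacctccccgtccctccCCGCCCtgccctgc
Kcnn3: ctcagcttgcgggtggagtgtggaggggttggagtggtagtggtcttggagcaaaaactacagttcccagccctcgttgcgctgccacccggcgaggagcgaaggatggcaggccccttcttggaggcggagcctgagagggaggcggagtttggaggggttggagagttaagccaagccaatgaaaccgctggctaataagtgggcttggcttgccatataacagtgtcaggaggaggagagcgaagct
Kcnmb1: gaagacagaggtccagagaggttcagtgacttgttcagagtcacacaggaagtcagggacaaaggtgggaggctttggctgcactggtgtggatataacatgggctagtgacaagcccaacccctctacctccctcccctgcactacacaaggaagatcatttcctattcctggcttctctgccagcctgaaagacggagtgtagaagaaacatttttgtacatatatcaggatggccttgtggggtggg
The Kcnn4 stretch held 1 GC box, and the others held none of these letters. The number of CG dinucleotides was 6 for Kcnn4, 10 for Kcnn3 and 1 for Kcnmb1. Over the whole windows, which add 50 bases after the start, a gene was counted when any of its windows matched. A GC box was found for 5 of 6 higher and 8 of 16 lower genes with a window, and for 38.2% of all 27025 such genes. Some genes have several windows, among the higher ones Kcnj16 and Kcne3, and so more places for a match. Of all 32851 single windows 35.7% held a GC box. The letters TGANTCA (AP-1) were found for 1 higher and 1 lower gene and for 8.97% of all genes. GGAATG (TEAD) was found for 2 higher and 2 lower genes (16.6% of all), AACCNGTT (grainyhead) for 1 and 1 (2.35%) and GTTAAT (HNF1) for 1 and 2 (8.24%). TATAAA was found for 1 higher and 2 lower genes (15.7% of all) and CANNTG (E-box) for 6 and 12 (75%). The CArG box known from smooth muscle genes was found in 0 of the windows of called members and for 1.81% of all genes. All letters were searched on both strands, and CANNTG can overlap the other motifs. Of the 92 windows of members, 69 had the bases after their start within a GENCODE transcript of the gene, but all were counted. Matches in the other windows include the higher AP-1 match (Kcne3), the higher TATAAA match (Kcnj16) and the lower grainyhead match (Kcna5).

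Levels between members were compared on the RPKM scale, which is CPM per kilobase of exonic length. Kcnk1, which encodes a K2P channel, was the highest member in both groups, with 42.8 ± 8.96 RPKM in WT and 166 ± 48.1 RPKM in PLD (mean ± SD, n = 3 libraries each). It made up 18.6 to 21.8% of the summed RPKM of all members in WT and 33.5 to 43.5% in PLD, without overlap. In WT the next highest were Kcne4 (30.2 ± 2.59 RPKM), Kcnk5 (24 ± 5.43), Kcnq1 (22.4 ± 4.08) and Kcne3 (18.1 ± 5.24). Neighbours in this order lay within their SDs, but the order was the same in each WT library. In PLD the next highest were Kcnq1 (77.7 ± 16.1 RPKM), Kcne3 (58.1 ± 8.46), Kcnk5 (45.4 ± 3.61) and Kcnn4 (43.6 ± 4.05). Of these, Kcnq1 and Kcne3 lay within their SDs, but Kcnq1 was the higher in each PLD library. Kcnk5 and Kcnn4 also lay within their SDs, and their order changed between PLD libraries. The summed RPKM of all members was 177 to 240 in WT and 393 to 507 in PLD. At or above 1 RPKM were 21 to 26 members in WT and 14 to 15 in PLD, so that fewer genes carried a larger sum.

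**Figure D2:**
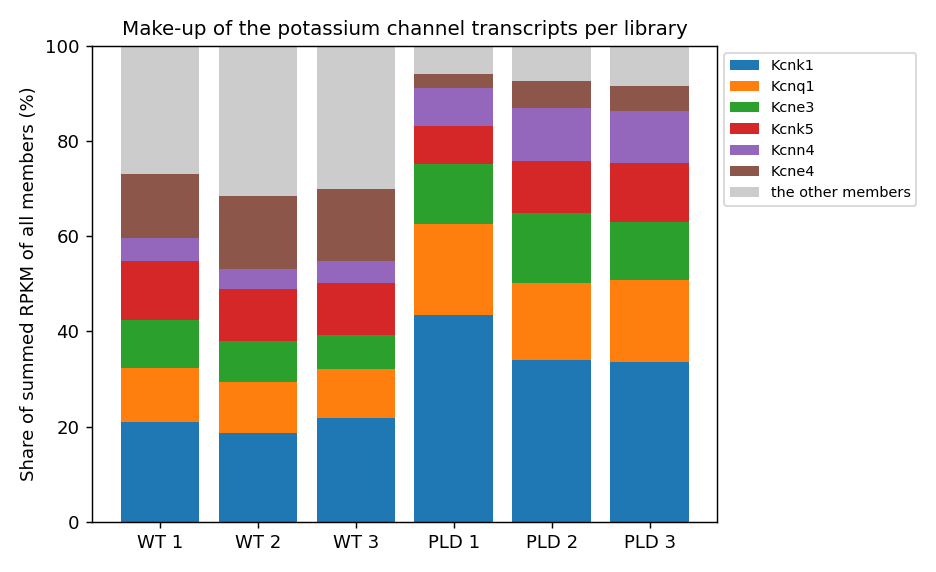
Stacked bars give the percent of the summed RPKM of all 92 members (vertical axis) held by 6 named genes and by the other members in each of the 6 libraries. The grey block of the other members is thinner in the PLD bars, and the Kcnk1 block is thicker (33.5 to 43.5% against 18.6 to 21.8%).

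Kcnk1 (ENSMUSG00000033998.9, mm10 chromosome 8, 125995170 to 126030685) had 113, 73.6 and 101 CPM in WT replicates 1 to 3 and 493, 322 and 294 CPM in PLD replicates 1 to 3. All PLD libraries were above all WT libraries, with PLD replicate 1 highest. The log2 fold change was 1.95 ± 0.24 (SE; edgeR adjusted p = 5.13e-04). Kcnk5, encoding a K2P channel that opens at alkaline pH outside the cell, had 102, 66.1 and 76.6 CPM in WT and 141, 159 and 164 CPM in PLD. These groups did not overlap either, and the log2 fold change was 0.92 ± 0.17 (edgeR adjusted p = 0.00269).

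Kcnq1 and Kcne3 encode the pore and the auxiliary subunit of the constitutively open potassium channel that works alongside cAMP-driven chloride secretion. Kcnq1 (ENSMUSG00000009545.14, chromosome 7, 143106362 to 143427042) had 110, 77.5 and 87 CPM in WT and 394, 283 and 277 CPM in PLD. Kcne3 (ENSMUSG00000035165.14, chromosome 7, 100176502 to 100184869) had 42.9, 27.4 and 26.1 CPM in WT and 114, 110 and 86 CPM in PLD. For both genes every PLD library exceeded every WT library. The log2 fold changes were 1.80 ± 0.19 for Kcnq1 and 1.68 ± 0.21 for Kcne3 (edgeR adjusted p = 2.69e-04 and 5.7e-04). Kcnq1ot1, transcribed from the opposite strand, shares 2.96% of the exonic length of Kcnq1 and fell by 0.64 on that scale (edgeR adjusted p = 0.0164). The counting names no strand setting, so reads of the shared bases cannot be told apart.

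Kcnn4 encodes the intermediate-conductance calcium-activated channel known from secreting epithelia (ENSMUSG00000054342.8, chromosome 7, 24370263 to 24386690). It had 60.2, 38.1 and 48.9 CPM in WT and 202, 244 and 223 CPM in PLD, without overlap. The log2 fold change was 2.18 ± 0.18 (edgeR adjusted p = 9.43e-05). It was the 1 calcium- or sodium-activated member called higher, while 5 others of that class were lower.

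Kcnj16, encoding an inward rectifier subunit that works in pairs with other subunits, had the highest log2 fold change of the tested members. With 2, 12 and 13 reads in WT, it passed the low count filter through its PLD libraries. It had 0.118, 0.708 and 0.803 CPM in WT and 5.92, 6.71 and 6.30 CPM in PLD, a log2 difference of 3.53 ± 0.48 (edgeR adjusted p = 7.85e-04). The 27 reads in WT and 301 in PLD gave a ratio per scaled library total of 11.7, with 95% exact binomial bounds of 7.91 and 18.1 for counting error alone. The genes of its known partner subunits, Kcnj15 and Kcnj10, went the other way. Both passed the low count filter through their WT libraries, which favoured a fall. In PLD they had 3, 3 and 4 reads (Kcnj15) and 2, 13 and 16 reads (Kcnj10). Kcnj15 had 1.71, 1.47 and 1.61 CPM in WT and 0.207, 0.183 and 0.24 CPM in PLD, and fell by 2.88 ± 0.33 on the log2 scale (edgeR adjusted p = 3.53e-04). Kcnj10 had 3.36, 1.47 and 2.59 CPM in WT and 0.138, 0.793 and 0.961 CPM in PLD, and its fall (log2 fold change -1.94) lost the call without PLD replicate 2, WT replicate 1 or WT replicate 3 (edgeR adjusted p = 0.0536, 0.0612 and 0.0615).

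Kcnh7 and Kcnb2, voltage-gated channel genes better known from neurons, were also called higher, at low levels. Kcnh7 had 9.44, 7.08 and 9.76 CPM in WT and 11.2, 17.3 and 16.7 CPM in PLD (log2 fold change 0.79 ± 0.22). Gca on the opposite strand shares 4.57% of the exonic length of Kcnh7. Its level was higher, with means of 37.2 CPM in WT and 61.4 CPM in PLD, and it rose by 0.72 on the log2 scale. Kcnb2 had 0.708, 0.236 and 0.309 CPM in WT and 0.827, 1.16 and 1.5 CPM in PLD (log2 fold change 1.46 ± 0.47), so that the highest WT and the lowest PLD library nearly met. With 12, 4 and 5 reads in WT, Kcnb2 passed the low count filter through its PLD libraries. The Kcnh7 call was lost without PLD replicate 2, PLD replicate 3 or WT replicate 2 (edgeR adjusted p = 0.0646, 0.0586 and 0.0562). The Kcnb2 call was lost without any 1 of PLD replicates 2 and 3 and WT replicates 2 and 3 (edgeR adjusted p = 0.0711 to 0.102).

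**Figure D3:**
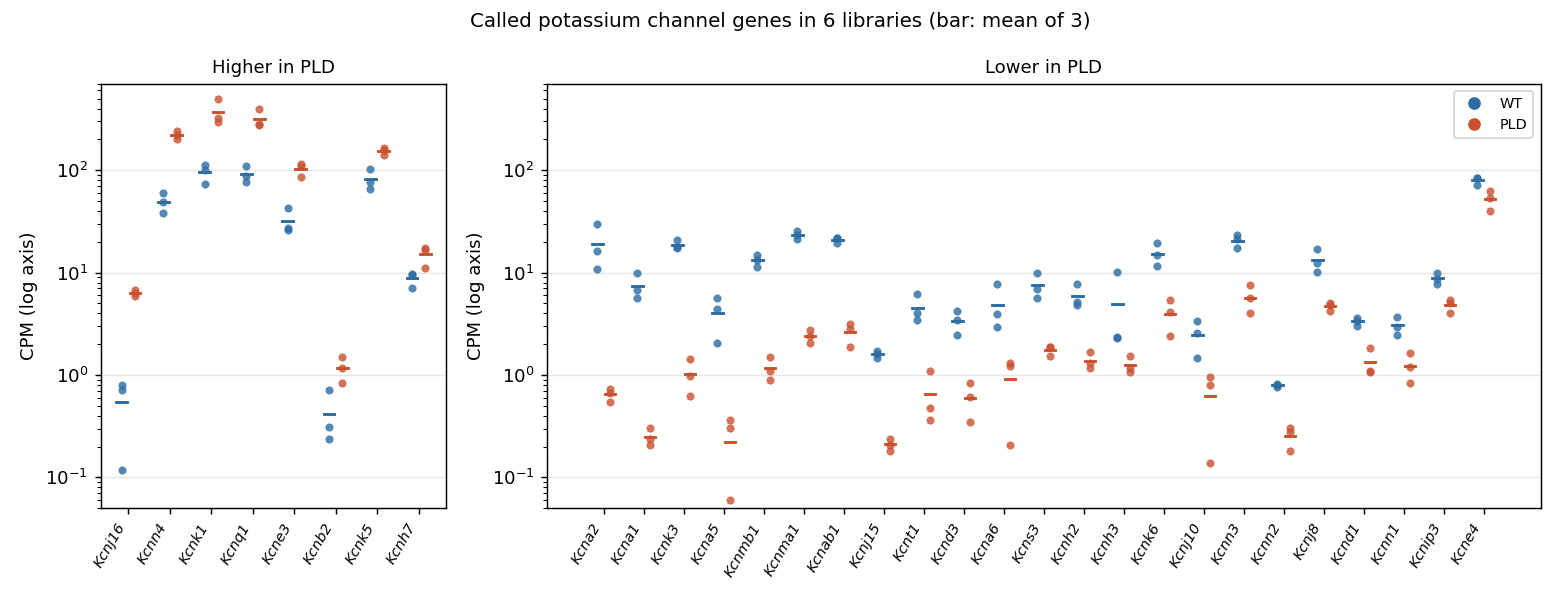
CPM of 31 of the 33 called genes (vertical log axis) with 1 point per library, WT in blue and PLD in red, and a bar at the mean of 3. The 8 higher genes shown span levels from under 1 CPM (Kcnb2 in WT) to 493 CPM (Kcnk1 in PLD replicate 1), and 1 library with 0 reads (Kcna5 in PLD replicate 1) is drawn at the lower edge.

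The rises of these genes were set against an epithelial marker by counting reads per 100 Epcam reads, a scaling chosen after the values were seen. Epcam itself rose by 1.61 ± 0.24 on the log2 scale. Per 100 Epcam reads, Kcnk1 went from 24.2 to 29 in WT libraries and from 32 to 36.2 in PLD libraries, and Kcnj16 from 0.0299 to 0.278 and from 0.435 to 0.69, both without overlap. For Kcnn4 the WT range was 11.7 to 15.3 and the PLD range 14.8 to 25, and the overlap came from PLD replicate 1. Kcnq1 (20.9 to 30.5 in WT and 28.9 to 30.1 in PLD) and Kcne3 (6.27 to 10.9 and 8.34 to 11.3) overlapped between the groups, as did Kcnb2. Kcnk5 was lower in PLD on this scale, with ranges of 18.4 to 26 (WT) and 10.3 to 17.9 (PLD), and so was Kcnh7 (2.34 to 2.78 and 0.824 to 1.82). Against Krt19, a duct keratin gene that rose by 3.26 ± 0.25 on the log2 scale, the order was another. Per 100 Krt19 reads, Kcnk1, Kcnq1, Kcne3, Kcnk5 and Kcnn4 were all lower in PLD than in WT without overlap, for example Kcnn4 with ranges of 10.9 to 13.1 (WT) and 4.77 to 6.29 (PLD), whereas Kcnj16 overlapped. Kcnh7 (1.71 to 2.5 in WT and 0.265 to 0.47 in PLD) and Kcnb2 were lower as well. Kcnk1 was thus higher in PLD per Epcam read and lower per Krt19 read, while Kcnk5 and Kcnh7 were lower on both scales. The part of cell composition in the rises was not tested.

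**Figure D4:**
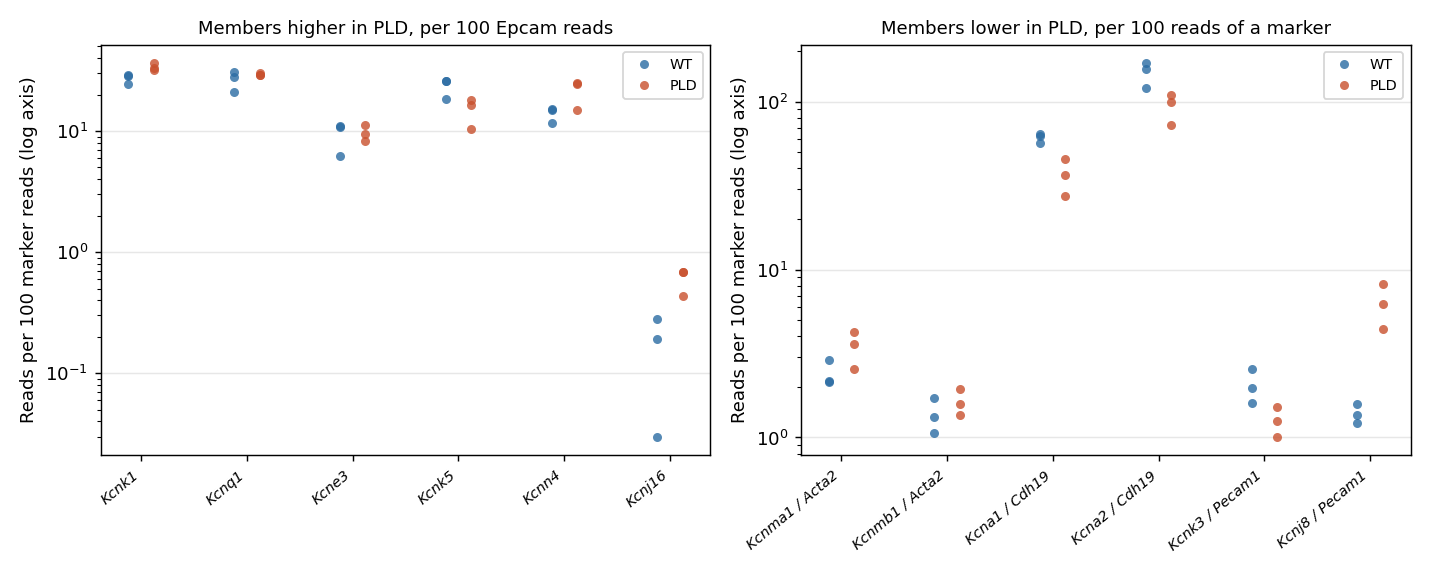
Reads of a potassium channel gene per 100 reads of a marker gene (vertical log axes), 1 point per library, with WT in blue and PLD in red. On the left, per 100 Epcam reads, the groups of Kcnq1 and Kcne3 overlap and those of Kcnk1 and Kcnj16 do not. On the right, the groups of Kcnma1 and Kcnmb1 overlap per 100 Acta2 reads, Kcna1 and Kcna2 are lower in PLD per 100 Cdh19 reads, and per 100 Pecam1 reads Kcnk3 is lower and Kcnj8 higher.

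Among the calcium- and sodium-activated channels, Kcnma1, the pore gene of the large-conductance calcium-activated channel, and Kcnmb1, its auxiliary subunit of smooth muscle, fell side by side. Kcnma1 (ENSMUSG00000063142.15, chromosome 14, 23289431 to 24014491) had 25.2, 23.2 and 21.3 CPM in WT and 2.41, 2.07 and 2.76 CPM in PLD. Kcnmb1 (ENSMUSG00000020155.2, chromosome 11, 33963013 to 33973641) had 15, 11.3 and 13.2 CPM in WT and 0.895, 1.10 and 1.5 CPM in PLD. The groups were far apart for both, with log2 fold changes of -3.26 ± 0.17 and -3.49 ± 0.25 (edgeR adjusted p = 3.3e-05 and 6.33e-05). Per 100 reads of the smooth muscle actin gene Acta2, Kcnma1 had ranges of 2.14 to 2.89 (WT) and 2.56 to 4.26 (PLD), and Kcnmb1 of 1.06 to 1.73 and 1.36 to 1.94, so that the groups overlapped on that scale. Per 100 reads of Myh11, the smooth muscle myosin gene, both were higher in PLD (2.6 to 2.98 and 4.31 to 6.69 for Kcnma1). The part of smooth muscle RNA in these falls was not tested.

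The small-conductance channel genes Kcnn1, Kcnn2 and Kcnn3 fell, in contrast to Kcnn4. Kcnn3, a channel gene also known from endothelium (ENSMUSG00000000794.9, chromosome 3, 89520164 to 89675132), had 23.1, 17.2 and 21.1 CPM in WT and 3.99, 5.61 and 7.51 CPM in PLD. It fell by 1.84 ± 0.24 on the log2 scale, with an edgeR adjusted p of 6.88e-04. Kcnn2, which has been described in bile duct cells, was near the limit of counting with 0.767, 0.825 and 0.803 CPM in WT and 0.276, 0.305 and 0.18 CPM in PLD. Its log2 fold change was -1.63, and that of Kcnn1 -1.3. The sodium-activated channel gene Kcnt1 had 6.14, 4.01 and 3.46 CPM in WT and 1.10, 0.366 and 0.48 CPM in PLD (log2 fold change -2.81), whereas its relative Kcnt2 had 26.8, 23.8 and 25.1 CPM in WT and 23.5, 38.4 and 40.4 CPM in PLD and did not pass (log2 fold change 0.44 ± 0.20). Without PLD replicate 1, the lowest PLD library for Kcnt2, the log2 fold change was 0.64 and passed (edgeR adjusted p = 0.0018).

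All 4 tested Kv1 genes, whose channels set excitability along axons and in vascular muscle, were lower. All 4 passed the low count filter through their WT libraries, which favoured a fall in this class. Their reads in PLD replicates 1 to 3 were 3, 5 and 4 (Kcna1), 8, 12 and 11 (Kcna2), 0, 5 and 6 (Kcna5) and 3, 20 and 22 (Kcna6). Kcna2 (ENSMUSG00000040724.5, chromosome 3, 107101146 to 107115005) had 29.7, 10.9 and 16.4 CPM in WT and 0.551, 0.732 and 0.661 CPM in PLD, and Kcna1 had 9.97, 5.60 and 6.73 CPM in WT and 0.207, 0.305 and 0.24 CPM in PLD. The WT libraries varied, with replicate 1 highest for both genes, but no PLD library reached 1 CPM. Summed per group, Kcna1 had 373 WT reads and 12 PLD reads, 29.5 times more in WT per scaled total (95% exact binomial bounds 16.7 and 57.6). Kcna2 had 953 and 31, 29.2 times more in WT (20.4 and 43.2). Kcna5, known from vascular muscle, had 5.66, 2.06 and 4.39 CPM in WT and 0, 0.305 and 0.36 CPM in PLD (log2 fold change -4.1 ± 0.70). Kcna6 fell by 2.38 ± 0.60 on the log2 scale, and 39.6% of its exonic length is shared with Gm26673 on the opposite strand, which had 0 reads. Those 0 reads do not show whether reads of the shared bases were counted for either gene.

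Of the glial and neuronal markers 8 of 12 tested were lower in PLD beside the Kv1 genes, including Cdh19 (log2 fold change -4.14), Foxd3 (-4.94) and Sox10 (-3.97), genes known from glia of peripheral nerves, and 2, Erbb3 and S100b, were higher. The summed level of that list was 122 to 181 CPM in WT and 189 to 251 CPM in PLD, of which Erbb3 held 63.1 to 80.1 CPM in WT and 144 to 222 CPM in PLD, and the neuronal gene Elavl4 had 0 reads in every library. Per 100 Cdh19 reads, Kcna2 had ranges of 121 to 169 (WT) and 72.7 to 109 (PLD), and Kcna1 of 56.7 to 64.5 and 27.3 to 45.5, a marker chosen after its values were seen. Both channel genes were lower in PLD without overlap on this scale too, but on 3 to 12 reads of each channel gene and 11 Cdh19 reads in a PLD library. The part of glial RNA in the fall of the Kv1 genes was not tested.

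Of the 16 tested voltage-gated and silent members 10 were lower and 4 higher. The fast-inactivating Kv4 genes Kcnd3 (3.48, 4.19 and 2.47 CPM in WT and 0.344, 0.61 and 0.841 CPM in PLD) and Kcnd1 (3.01, 3.36 and 3.64 CPM in WT and 1.10, 1.83 and 1.08 CPM in PLD) fell, with log2 fold changes of -2.47 and -1.31. Kcnh2, the ERG channel gene of heart and smooth muscle, had 7.67, 5.19 and 4.82 CPM in WT and 1.31, 1.16 and 1.68 CPM in PLD (log2 fold change -2.08). Kcns3, which encodes a silent subunit that modifies other voltage-gated channels, had 5.60, 9.96 and 6.98 CPM in WT and 1.86, 1.52 and 1.86 CPM in PLD (log2 fold change -2.1). It was the 1 tested gene of 10 silent members.

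Kcnh3 had 10.2, 2.36 and 2.29 CPM in WT and 1.52, 1.16 and 1.08 CPM in PLD. Its log2 fold change of -1.98 became -0.89 without WT replicate 1, its highest library, and no longer passed (edgeR adjusted p = 0.0506). It also missed without PLD replicate 2 or 3 (0.0911 and 0.086) and with limma-voom (0.0776). In the KCNQ class, Kcnq3 had 1.42, 0.059 and 0.309 CPM in WT and 1.10, 2.62 and 4.38 CPM in PLD. Its log2 fold change of 2.17 ± 0.85 did not pass (edgeR adjusted p = 0.0613), but it was 3.85 without WT replicate 1 and 2.53 without PLD replicate 1, and passed in both cases (edgeR adjusted p = 0.009 and 0.0304).

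Inward rectifiers let potassium into cells more easily than out and hold the resting potential, and the ATP-sensitive type among them needs a sulphonylurea receptor subunit. Kcnj8, the vascular ATP-sensitive pore gene, had 10.1, 17 and 12.4 CPM in WT and 5.03, 4.82 and 4.20 CPM in PLD, and fell by 1.49 ± 0.23 on the log2 scale (edgeR adjusted p = 0.00128). Abcc9, the gene of its receptor subunit, fell by 1.98 ± 0.14. Kcnj11, the ATP-sensitive pore gene of pancreas and striated muscle, had 4.90, 4.36 and 8.09 CPM in WT and 8.20, 8.17 and 7.93 CPM in PLD, so that WT replicate 3 lay among the PLD values. Its log2 fold change was 0.49 ± 0.25 and did not pass, or 0.81 without WT replicate 3, when it did (edgeR adjusted p = 0.0216). Its receptor subunit gene Abcc8 had a mean of 0.9 CPM in WT and 1.25 CPM in PLD and did not pass. Kcnj2 (log2 fold change 0.2 ± 0.28) did not pass, nor did Kcnj5 (-1.13 ± 0.60), although the Kcnj5 values of the groups did not overlap. The median log2 fold change was -3.32 over the endothelial markers (range -4.24 to -1.98) and -3.21 over the smooth muscle and pericyte markers (-5.31 to -1.74). Rgs5, with the smallest fall of the latter list (-1.74 ± 0.23), came nearest to Kcnj8 within these lists. Markers of other lists came nearer, among them Col1a1 of fibroblasts (-1.54 ± 0.55) and G6pc of hepatocytes (-1.53 ± 0.33). Per 100 Pecam1 reads Kcnj8 was higher in PLD (4.42 to 8.19) than in WT (1.22 to 1.58). The same held per 100 Acta2 reads (5.44 to 8.88 and 1.16 to 1.59). The part of vascular RNA in the fall of Kcnj8 was not tested.

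Among the K2P genes, Kcnk3, encoding an acid-inhibited leak channel known from vascular muscle, had 21, 17.4 and 17.9 CPM in WT and 0.62, 0.976 and 1.44 CPM in PLD. It fell by 4.19 ± 0.28 on the log2 scale (edgeR adjusted p = 5.28e-05). Per 100 Pecam1 reads Kcnk3 was lower in PLD (1.01 to 1.52) than in WT (1.61 to 2.54), while per 100 Acta2 reads the groups overlapped. Kcnk6 had 14.7, 11.7 and 19.6 CPM in WT and 2.41, 4.09 and 5.40 CPM in PLD, and fell by 1.94 ± 0.32, the opposite of its close relative Kcnk1. Kcnk2 (0.67 ± 0.40), Kcnk7 (-0.96 ± 0.44) and Kcnk13 (-0.82 ± 0.45) did not pass. The Kcnk2 change passed without PLD replicate 1 (log2 fold change 0.94, edgeR adjusted p = 0.0426) and that of Kcnk7 without PLD replicate 3 (-1.47, edgeR adjusted p = 0.0343).

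Of 15 auxiliary subunit genes 6 were tested, and 4 of these fell while Kcne3 rose. Kcne4, which inhibits several voltage-gated channels and was the member with the second highest level per length in WT, had 84.8, 72.2 and 83.3 CPM in WT and 39.6, 63 and 54 CPM in PLD. The groups did not overlap, and the log2 fold change was -0.62 ± 0.17 (edgeR adjusted p = 0.017, or 0.0576 without WT replicate 3). Kcnab1, a cytoplasmic partner of Kv1 channels, had 19.6, 21.6 and 21.6 CPM in WT and 1.86, 2.81 and 3.18 CPM in PLD (log2 fold change -2.99 ± 0.21), but per 100 Pecam1 reads it was higher in PLD (3.03 to 3.62) than in WT (2 to 2.38). Per 100 Acta2 reads it was also higher in PLD (3.28 to 4.12) than in WT (2.01 to 2.25). Its relative Kcnab2 did not pass (0.43 ± 0.30), except without PLD replicate 1 (0.66, edgeR adjusted p = 0.0471). Kcnip3, a calcium-binding partner of Kv4 channels, had 9.97, 7.67 and 8.71 CPM in WT and 4.06, 5.00 and 5.40 CPM in PLD (log2 fold change -0.86 ± 0.19).

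The other 49 members were not tested, and none had more than 21 reads in a library, where 3 reads correspond to 0.177 to 0.207 CPM. Of these, 7 had 0 reads in all libraries (Kcna10, Kcnj1, Kcnj3, Kcnj6, Kcnk12, Kcnk18 and Kcns1). Kcne2, the gene of another auxiliary partner of Kcnq1, had 0, 1 and 0 reads in WT and 2, 10 and 6 in PLD. That is a ratio of 19 per scaled total with a 95% exact binomial interval of 2.99 to 790. Kcng1, a silent subunit gene, had 6, 1 and 1 reads in WT and 9, 14 and 21 in PLD. Kcnc2 had 6, 3 and 4 reads in WT, Kcnip2 4, 3 and 5 and Kcnv2 3, 4 and 2, and each had 0 reads in PLD. Set against a floor of 3 reads over the PLD libraries, their WT reads were 4.11-fold, 3.8-fold and 2.85-fold higher per scaled total. With the counting error of the WT reads included, the 95% exact binomial lower bounds of the fall were 2.89-fold, 2.64-fold and 1.87-fold. These 5 genes were chosen after their values were seen. Exonic bases are shared with genes of the opposite strand by 24 members, for 3 of them over more than 30% of the exonic length: Kcnj13 with Gigyf2 (49.1%), Kcna6 and Kcnmb4 (31.5%).

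Of 44 other genes that move potassium or govern its channels, 34 were tested, with 11 higher and 12 lower in PLD and a median log2 fold change of -0.05. These are 32.4% and 35.3% of the tested genes of the list, near the 27% and 28.4% of all tested genes. The sodium pump, which loads cells with potassium, has beta subunits that went both ways. Atp1b1, the beta subunit gene usual in epithelia, rose from 486 ± 75.1 to 1320 ± 147 CPM (mean ± SD, n = 3; log2 fold change 1.45). Atp1b2, known from muscle and glia, fell from 74 ± 15.2 to 12.4 ± 5.54 CPM, with a log2 fold change of -2.58 ± 0.34. The pump regulator gene Fxyd2 had the highest rise of the list (3.36 ± 0.54), from 0.46 to 4.77 CPM. Next came Lrrc26, the gene of an auxiliary subunit of the large-conductance channel in secretory epithelia, which rose by 3.27 ± 0.61, from 2.08 ± 2.19 to 20.2 ± 4.90 CPM, in the libraries where Kcnma1 and Kcnmb1 fell. Hcn2, a pacemaker channel gene, rose by 1.27 from 1.31 to 3.18 CPM. Slc12a5, a potassium-chloride cotransporter gene known from neurons, fell by 2.61 ± 0.22. Slc12a2, the cotransporter that brings chloride and potassium into secretory cells, had a log2 fold change of 0.40 ± 0.14, which passed (edgeR adjusted p = 0.0389) but not without PLD replicate 1, PLD replicate 3, WT replicate 2 or WT replicate 3 (adjusted p = 0.0693 to 0.118). The Hcn2 call was lost when PLD replicate 2, PLD replicate 3, WT replicate 2 or WT replicate 3 was left out (edgeR adjusted p = 0.0565 to 0.0765). Slc12a2 was named after its values were seen.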

How the data were processed

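Raw read counts per gene were deposited by the authors, 1 table per library for 3 PLD and 3 WT libraries. Per the file headers, the counts came from featureCounts 1.6.0 on GENCODE vM25 (mm10), with no option for strand, paired ends or multi-mapping reads. STAR 2.7.4a, SAMtools 1.12 and DESeq2 1.26.0 are named per the submitters' processing notes. Symbols and gene types came from GENCODE vM21 by gene ID without version, matching 55141 of 55401 IDs. Coordinates and exonic lengths are those of the tables.

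The main test was edgeR's quasi-likelihood F test (edgeR 4.0.16 in R 4.3.3) of PLD against WT with no covariate, on the 15334 genes that filterByExpr kept and with TMM factors of 0.922 to 1.04 (biological coefficient of variation 0.196), adjusted by Benjamini-Hochberg at 0.05. A standard error is the size of the log2 fold change over the root of the F value. CPM and RPKM use TMM-scaled library sizes. The library totals make 3 reads equal to 0.177 to 0.207 CPM. Intervals of 95% cover counting error only.

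Values in every library were given, by rule, for the 3 largest called changes per direction in each channel class, the 2 highest members per class by level per length, and channel genes known from secretion. Of the other potassium genes, called genes with large changes were named, with Abcc8 and Abcc9. Further genes were named after their values were seen, and every pairing of a member with a marker gene was chosen in the same way. The values of some genes the rule covers are not reported here. Members, lists and rules were chosen with earlier results of these data known. Replicates of a group differed by 9.72 to 63.9 in chi-square per degree of freedom (genes with at least 50 reads), beyond sampling noise. On simulated counts the same functions were tested beforehand. Few genes were changed in that simulation, evenly up and down, so it does not cover changes as broad as those in these data. Alternatives were DESeq2 1.42.0, limma-voom (limma 3.58.1), RLE and upper-quartile factors, no low count filter, 1 CPM in 3 libraries, a replicate block, each library left out, and a log2 change of at least 1.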

Additional observations from a re-analysis of the deposited data

How the results depend on the processing

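Of the 33 called potassium channel genes 28 kept direction and call under every other tool, scaling, count filter, block and left-out library that tested them (7 of 9 higher and 21 of 24 lower), 5 lost the call at least once (Kcnb2, Kcnh3, Kcnh7, Kcnj10 and Kcne4) and 0 changed direction. The counts of higher and lower members were 10 and 24 by DESeq2, 10 and 23 by limma-voom, 9 and 24 with RLE or upper-quartile factors, 12 and 29 without a low count filter, 8 and 23 at 1 CPM in 3 libraries, and 7 and 22 at a log2 change of at least 1. With 1 library left out they ran from 7 to 13 higher and from 22 to 24 lower. Replicate numbers did not pair the libraries: deviations of same-numbered libraries correlated at 0.156, 0.0363 and 0.0613, and replicates 2 and 3 correlated best with another number. With the replicate block 8 members were higher and 24 lower, Kcnb2 losing its call (adjusted p = 0.0573).

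Small class counts moved. Without a low count filter 1 Kv3 member was lower, 1 silent member higher and 3 lower, and 2 auxiliary members and 2 KCNQ members higher, the last also by DESeq2 and limma-voom (2 each). Limma-voom called 1 EAG or ERG member lower. At 1 CPM in 3 libraries, and with the replicate block, 0 Kv2 members were higher. At a log2 change of at least 1, 0 EAG or ERG and 1 K2P member were higher, 2 auxiliary members lower and 7 other potassium genes higher. With 1 library left out, higher members ran from 0 to 1 in Kv2 and in EAG or ERG, and from 1 to 2 in KCNQ, in the calcium- and sodium-activated, in the inward rectifier and in the auxiliary class, and lower EAG or ERG members from 1 to 2. The cause of these moves was not tested.

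With 1 library left out, signs turned for genes that had not passed the main test: Kcnj2 (-0.02 to 0.5, negative without WT replicate 2), Abcc8 (-0.04 to 0.76, negative without PLD replicate 1), Lrrc55 (-0.16 to 0.66, negative without PLD replicate 3 and, at -0.04, without WT replicate 2), Amigo1 (-0.41 to 0.01, positive without PLD replicate 1) and Wnk4 (-0.15 to 0.2, negative without PLD replicate 1). The cause was not tested. Members under about 1 CPM rest on few reads.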
